A study of Mus musculus with 16 samples.

Results

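The AP-1 family of Fos and Jun transcription factors was followed through 16 RNA-seq libraries of muscle stem cells sorted from mice. The 8 members were chosen by gene name: the Fos genes Fos, Fosb, Fosl1 and Fosl2, the Jun genes Jun, Junb and Jund, and Atf3. They are 8 of the 24341 gene symbols listed for every library, and all 8 were among the 12954 genes with at least 1 FPKM (fragments per kilobase of transcript, scaled to the mapped fragments of the library) in at least 2 libraries, on which the tests below were run. Levels of the members ran from 8.97 to 4273 FPKM, and none of the 128 values was listed at 0.

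All mice were C57BL/6 and 2 to 3 months old. The cells were sorted as CD34+ and alpha-7 integrin+ and as CD31-, CD11b-, CD45- and Sca-1-, from muscle digested with collagenase and dispase. The groups named p53WT (n = 3) and p53KO (n = 3) came from hind limb muscle, as did p53WT_G2 (n = 2) and p53KO_G2 (n = 2), while p53WT_3dai (n = 3) and p53KO_3dai (n = 3) came from tibialis anterior muscle. The labels spell out neither 3dai nor G2, name no Dmd allele for any group although the title of the series is about a severe model of Duchenne muscular dystrophy, and do not say which part of Trp53 was removed or in which cells. The groups p53WT and p53KO are called the groups with no suffix below. Because the 3dai cells came from another muscle, that difference and the 3dai label cannot be told apart. The labels do not say that libraries of a group came from separate mice, so each p measures the spread between libraries only.

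Fos and Jun proteins carry a basic region that binds DNA and a leucine zipper through which they pair. Jun proteins can pair with each other or with a Fos protein, whereas Fos proteins need a Jun partner. The pair binds the AP-1 site, TGANTCA with C or G as N. Fos, Fosb, Jun, Junb and Atf3 are classical immediate early genes, transcribed within minutes of a growth factor or stress signal from promoters that hold cAMP response elements and serum response elements. In muscle stem cells these genes are known to be switched on early as cells leave quiescence after injury, and also when muscle is taken apart with enzymes for sorting.

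Per the deposited loci, on mouse build mm10, Fos lies at chr12:85473901-85477270 on the plus strand, Fosb at chr7:19302696-19310045 on the minus strand, Fosl1 at chr19:5447698-5457563 on the plus strand and Fosl2 at chr5:32136472-32157839 on the plus strand. Jun lies at chr4:95049036-95052222 on the minus strand, Junb at chr8:84976909-84978748 on the minus strand, Jund at chr8:70697739-70700616 on the plus strand and Atf3 at chr1:191170297-191183333 on the minus strand. In the GENCODE annotation the principal transcripts of the Fos genes and Atf3 have 4 exons, and those of the Jun genes have 1. The deposited locus of Fosl1 runs past the RefSeq end of that gene over Ccdc85b, a gene on the opposite strand listed at 7.44 to 14.8 FPKM. No source used here states whether counting used strand, so Fosl1 is uncertain to that extent.

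The promoters of the 5 members named above as immediate early genes are shown. Each line gives the 150 bases before a gene start (build GRCm38.p6), 5′ to 3′ on the gene's own strand. The start is that of RefSeq for Fos, Jun, Junb and Atf3. For Fosb it is the deposited one at 19310045, whereas the RefSeq gene runs on to 19310118. The Fosb line thus lies partly inside the RefSeq gene. Capitals mark the core TGACG of the cAMP response element, read on either strand, or the element TGACNTCA that ATF and Jun proteins bind. The positions are chr12:85473740-85473889 (+) for Fos, chr7:19310046-19310195 (-) for Fosb, chr4:95052223-95052372 (-) for Jun, chr8:84978749-84978898 (-) for Junb and chr1:191183334-191183483 (-) for Atf3.
Fos: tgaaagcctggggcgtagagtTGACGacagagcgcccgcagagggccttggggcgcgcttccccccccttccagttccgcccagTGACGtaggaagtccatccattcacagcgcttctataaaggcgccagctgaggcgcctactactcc
Fosb: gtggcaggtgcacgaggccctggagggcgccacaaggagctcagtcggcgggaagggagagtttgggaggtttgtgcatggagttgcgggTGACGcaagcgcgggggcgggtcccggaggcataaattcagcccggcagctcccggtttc
Jun: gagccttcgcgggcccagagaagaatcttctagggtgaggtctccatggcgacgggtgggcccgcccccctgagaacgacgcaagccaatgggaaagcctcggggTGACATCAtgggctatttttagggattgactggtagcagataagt
Junb: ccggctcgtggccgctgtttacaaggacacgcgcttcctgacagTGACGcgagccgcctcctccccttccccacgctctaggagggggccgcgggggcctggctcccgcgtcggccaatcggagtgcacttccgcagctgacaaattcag
Atf3: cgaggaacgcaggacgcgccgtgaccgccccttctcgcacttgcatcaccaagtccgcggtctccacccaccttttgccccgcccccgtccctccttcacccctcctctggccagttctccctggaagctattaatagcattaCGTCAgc
A window of 250 bases before the start was searched on both strands for 27025 promoters, 7 of them of members (Fosl1 was not among them). The Fos window held TGACG at 129 to 125 and at 66 to 62 bases before the start, and TATAAA at 33 to 28 bases. The same 5 letters lay 106 to 102 bases before the start of Junb and 7 to 3 before that of Atf3. For Fosb they lay 60 to 56 bases before the deposited start, which is inside the RefSeq gene. TGACG, which can also be the start of a TGACNTCA, was thus in 4 of 7 member windows, against 17.9% of all windows. Jun held TGACNTCA 45 to 38 bases before its start, as did 7.59% of all windows and no other member. TATAAA was in 13% of all windows, and in 1 of the 7 (Fos). TGANTCA, with any base as N, was in 6.87% of all windows and the CArG box of serum response elements in 1.4%. Neither was in any of the 7. Bases more than 250 before the start were not searched, so elements further upstream could not be seen. Each match is a description of letters in these windows.

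Trp53 itself was lower in p53KO than in p53WT libraries in all 3 states: 6.34 to 12.2 against 40.0 to 53.9 FPKM with no suffix, 34.9 to 45.7 against 134 to 161 FPKM for 3dai and 16.7 to 19.8 against 59.8 to 71.0 FPKM for G2 (limma adjusted p = 0.000188, 0.0036 and 0.0181). The number of reads per library is unknown from FPKM, and only their sums, 423303 to 616485 per library, can be given. The markers used for the sort were at 27.1 to 140 FPKM for Cd34 and 81.1 to 317 FPKM for Itga7. Of 8 immune markers, Csf1r, S100a8 and S100a9 were listed at 0 in every library and the 8 together summed to at most 16.9 FPKM. Among libraries with no suffix, p53KO replicate 3 stood apart, with the highest level of 7 of the 8 members and the lowest of Fosl1. In p53KO_3dai, replicates 2 and 3 stood apart from replicate 1. Results that rest on these libraries are given with and without them.

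**Figure D1:**
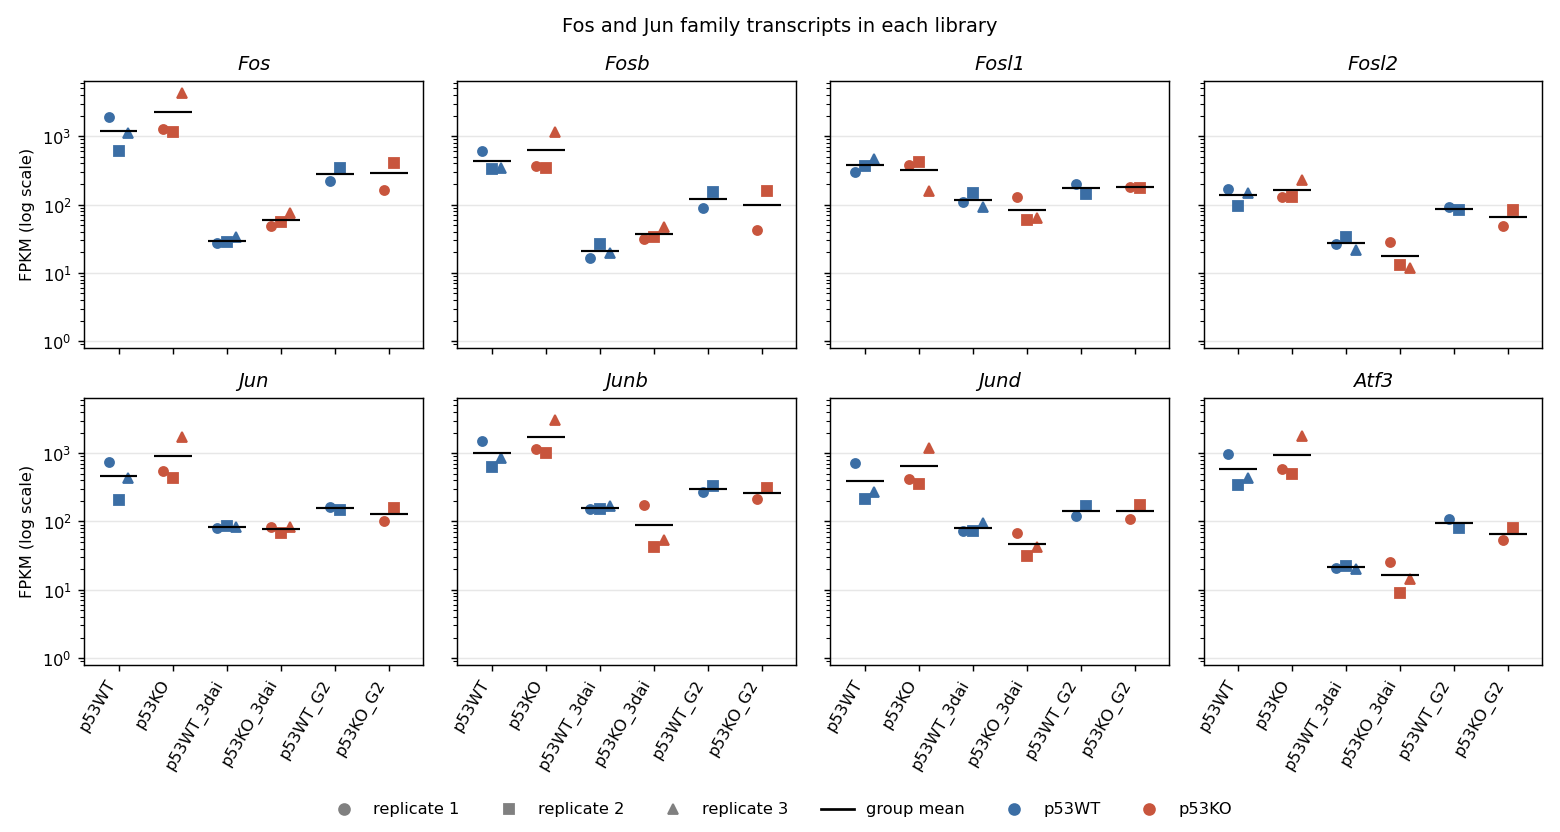
FPKM (log scale) of each of the 8 members in the 16 libraries, by group; points are libraries, shapes are replicate numbers and the black line is the group mean. The libraries with no suffix are the highest group and the 3dai libraries the lowest for every member, with G2 between, although single libraries overlap for Fosl1 and Fosb.

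The 3dai libraries held far less of the whole family than the libraries with no suffix. All 8 members fell in both genotypes, from 3.26-fold for Fosl1 to 40.5-fold for Fos in p53WT, and from 3.8-fold for Fosl1 to 58.3-fold for Atf3 in p53KO (ratios of group means). Among all genes tested 20.9% were called lower in p53WT_3dai than in p53WT and 22.7% in p53KO_3dai than in p53KO, where a call is an adjusted p below 0.05 in limma's two-sided test. For every member each 3dai library lay below each library with no suffix of its genotype, as it did for 24.1% and 24.9% of genes. The median difference of the members was -2.42 in p53WT and -3.71 in p53KO on the log2(FPKM + 1) scale, on which all differences and their standard errors (SE) below are given, against 0.23 and 0.14 over all genes tested. Scaling by the median of ratios moved those all-gene medians to -0.07 and -0.10 and the split of all calls from 4122 rises and 2701 falls to 3038 and 3558 in p53WT, and for p53KO from 3939 and 2944 to 3022 and 3707; all 8 members were still called lower in both. In bulk samples fewer cells that hold a transcript and less of it per cell cannot be told apart.

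Fos, the founding member, was at 1892, 604 and 1118 FPKM in p53WT, at 1265, 1164 and 4273 FPKM in p53KO, at 27.2, 28.5 and 33.6 FPKM in p53WT_3dai and at 48.5, 54.9 and 75.8 FPKM in p53KO_3dai. The spread among libraries with no suffix was wide, yet the highest 3dai library was well below the lowest of them. The difference was -5.15 (SE 0.48, adjusted p = 4.34e-07) in p53WT and -4.95 (SE 0.48, adjusted p = 6.11e-07) in p53KO. Fosb, whose protein shares the Fos domains and whose short splice form is long-lived, was at 613, 328 and 342 FPKM in p53WT and at 16.3, 26.5 and 19.4 FPKM in p53WT_3dai. Its p53KO libraries were at 369, 348 and 1158 FPKM and its p53KO_3dai libraries at 31.3, 33.3 and 47.2 FPKM. Fosb thus followed Fos, with differences of -4.27 (adjusted p = 2.81e-06) and -3.82 (adjusted p = 8.52e-06).

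Fosl1 and Fosl2 encode Fra-1 and Fra-2, Fos proteins without the strong activation domain of Fos. Fosl1 was at 305, 365 and 459 FPKM in p53WT, at 379, 417 and 161 FPKM in p53KO, at 108, 147 and 91.3 FPKM in p53WT_3dai and at 128, 60.4 and 62.9 FPKM in p53KO_3dai. It moved least of the members in both genotypes, by -1.70 (SE 0.35, adjusted p = 0.000683) and -1.89 (SE 0.35, adjusted p = 0.000289). Its low value in p53KO replicate 3 came close to the 3dai range, and without that library the p53KO difference was -2.32. Fosl2 was at 170, 95.5 and 147 FPKM in p53WT and at 26.9, 33.2 and 21.4 FPKM in p53WT_3dai. In p53KO it was at 128, 129 and 226 FPKM, and in p53KO_3dai at 28.6, 13.3 and 11.6 FPKM. Fosl2 fell by 2.28 (adjusted p = 3.95e-05) in p53WT and by 3.16 (adjusted p = 1.53e-06) in p53KO.

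The Jun genes supply the partners of the Fos proteins. Jun was at 749, 208 and 438 FPKM in p53WT and at 80.9, 85.4 and 83.4 FPKM in p53WT_3dai, so that the 3dai libraries were nearly alike while those with no suffix were not. In p53KO it was at 539, 431 and 1712 FPKM and in p53KO_3dai at 83.9, 67.7 and 83.9 FPKM. Junb, which restrains Jun in some settings, was at 1488, 631 and 852 FPKM in p53WT and at 152, 152 and 170 FPKM in p53WT_3dai. Its p53KO libraries were at 1136, 1010.2 and 3088 FPKM and its p53KO_3dai libraries at 174, 42.5 and 52.96 FPKM, where replicate 1 lay above all 3 p53WT_3dai libraries and the other two below them. Jund, the member usually held to be the most steadily transcribed, was at 712, 209.9 and 269 FPKM in p53WT, at 419, 349.7 and 1189 FPKM in p53KO, at 72.9, 72.3 and 95.3 FPKM in p53WT_3dai and at 68.2, 31.0 and 42.8 FPKM in p53KO_3dai. It fell too, with no overlap between states. In p53WT the differences were -2.28 for Jun (adjusted p = 0.000524), -2.55 for Junb (adjusted p = 0.000368) and -2.09 for Jund (adjusted p = 0.00141). In p53KO they were -3.22 for Jun (adjusted p = 2.33e-05), -4.36 for Junb (adjusted p = 2.27e-06) and -3.61 for Jund (adjusted p = 1.1e-05). Whether these falls differ between genotypes is tested below.

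Atf3, a stress-induced factor that pairs with Jun proteins, was at 957, 339.7 and 433 FPKM in p53WT and at 21.1, 22.4 and 20.3 FPKM in p53WT_3dai, a range of barely 2 FPKM. In p53KO it was at 594.5, 495 and 1760 FPKM and in p53KO_3dai at 25.7, 8.97 and 14.1 FPKM. The difference was -4.55 (SE 0.46, adjusted p = 9.44e-07) in p53WT and -5.66 (SE 0.46, adjusted p = 9.75e-08) in p53KO. Without p53KO replicate 3, all 8 members were again called lower in p53KO_3dai than in p53KO, with Fos at -4.35 and Atf3 at -5.09. With p53KO_3dai reduced to replicate 1, a setting chosen after seeing the data in which that library was assumed to vary like the other groups, 7 were called and Fosl1 was not (-1.19, adjusted p = 0.0532). In that setting 1727 genes were called lower, against 2944 with all libraries.

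**Figure D2:**
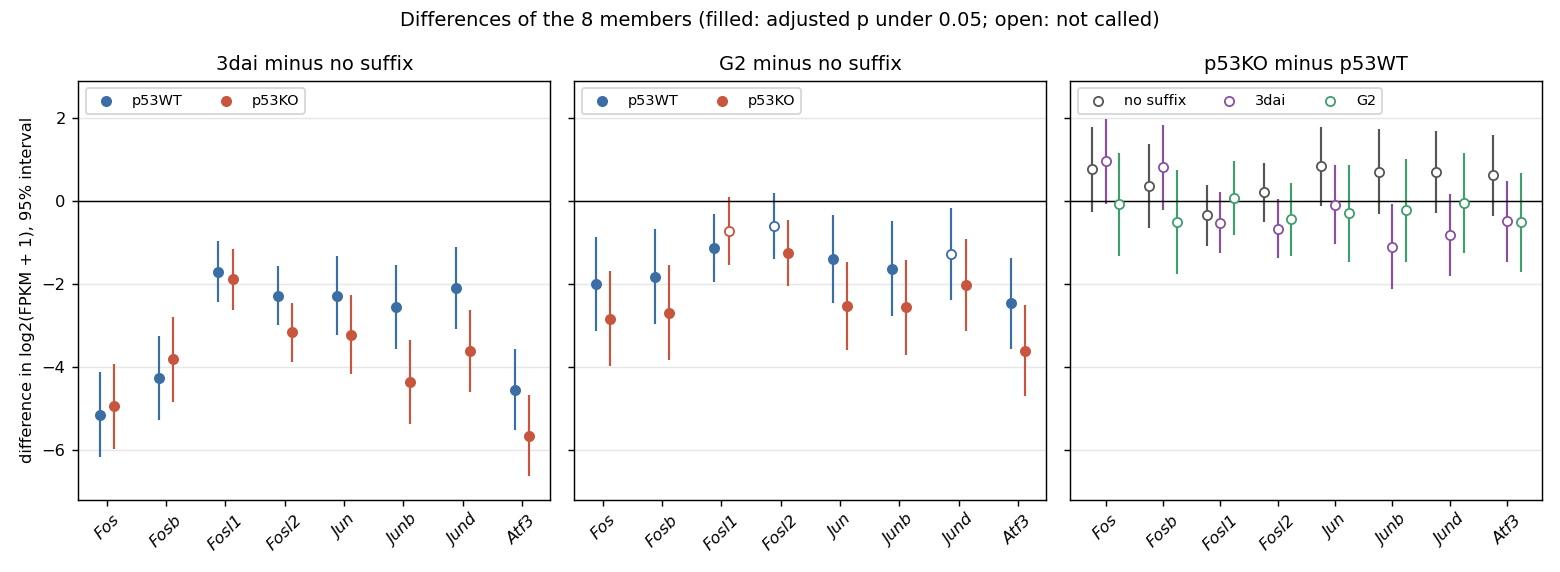
Differences in log2(FPKM + 1) with 95% intervals for the 8 members; 3dai minus no suffix and G2 minus no suffix are shown for both genotypes, and p53KO minus p53WT for the 3 states. Filled points have an adjusted p below 0.05: all 16 in the 3dai panel, 13 of 16 in the G2 panel and none of 24 between genotypes.

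In G2 libraries, which like those with no suffix came from hind limb, the family stood between the other states. These comparisons share their control libraries with those of 3dai. In p53WT_G2 against p53WT 6 of 8 members were called lower, while 5.39% of all genes were, and in p53KO_G2 against p53KO 7 of 8, while 7.06% of all genes were. Atf3 fell furthest, 6.12-fold in p53WT and 14.3-fold in p53KO. With 2 libraries in each G2 group these counts were unsteady. In p53WT 3 members were called without p53WT replicate 1 or without p53WT replicate 3. In those fits 576 and 544 of all genes were called lower, against 698 with all libraries. Leaving out a G2 library leaves 1 in its group, so only differences are given. Without p53WT_G2 replicate 1 Fos was at -1.67 and Fosb at -1.44 in p53WT. Without p53WT_G2 replicate 2 Fosl1 was at -0.88 and Jun at -1.34. Without p53KO_G2 replicate 1 Fosb was at -1.75, Fosl2 at -0.87 and Jund at -1.68 in p53KO. All 8 members lay lower in every p53WT_G2 library than in any p53WT library, against 15.1% of genes. In p53KO this held for 7 members, against 14.7% of genes, with Fosl1 the exception.

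Fos was at 218 and 340 FPKM in p53WT_G2 and at 163 and 409 FPKM in p53KO_G2, all below the lowest library with no suffix. It fell by 1.99 (SE 0.53, adjusted p = 0.0117) in p53WT and by 2.83 (SE 0.53, adjusted p = 0.0011) in p53KO. Fosb, at 88.0 and 151 FPKM in p53WT_G2 and at 41.9 and 157 FPKM in p53KO_G2, fell by 1.82 (adjusted p = 0.0192) and by 2.69 (adjusted p = 0.00162). Fosb varied more than Fos between the p53KO_G2 libraries. Fosl1 was at 201 and 144 FPKM in p53WT_G2 and at 183 and 175.5 FPKM in p53KO_G2, with differences of -1.12 (adjusted p = 0.0416) in p53WT and -0.71 (adjusted p = 0.184) in p53KO. Fosl2 was at 91.8 and 83.3 FPKM in p53WT_G2 and at 48.8 and 84.5 FPKM in p53KO_G2. The Fosl2 difference was -0.61 (adjusted p = 0.252) in p53WT and -1.26 (adjusted p = 0.019) in p53KO. Fosl1 and Fosl2 were thus each called in a single genotype, and neither interaction passed the test below. This pattern rested on p53KO replicate 3. Without it Fosl1 was called in p53KO (-1.14, adjusted p = 0.0186) and Fosl2 was not (-0.99, adjusted p = 0.0666), as in p53WT. In that setting Fos was at -2.23 and Atf3 at -3.04 in p53KO, both still called lower.

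Among the Jun genes, Jun was at 161 and 149 FPKM in p53WT_G2 and at 102 and 157 FPKM in p53KO_G2. Its difference was -1.40 (adjusted p = 0.0496) in p53WT and -2.53 (adjusted p = 0.00154) in p53KO, the former at the edge of the threshold. Junb, at 272 and 332 FPKM and at 212 and 312 FPKM, moved by -1.62 (adjusted p = 0.0341) and -2.56 (adjusted p = 0.00231). Jund, at 119 and 167 FPKM and at 108 and 173 FPKM, moved by -1.28 (adjusted p = 0.0815) and -2.02 (adjusted p = 0.00876). The levels of all Jun genes in G2 were thus below the libraries with no suffix, and the p53WT difference of Jund missed the threshold. Atf3 was at 108 and 80.9 FPKM in p53WT_G2 and at 53.1 and 79.9 FPKM in p53KO_G2, and its difference was -2.47 (SE 0.51, adjusted p = 0.00227) and -3.60 (SE 0.51, adjusted p = 0.000111). Here the median over all genes was itself shifted, by 0.33 in p53WT and 0.31 in p53KO. Scaled by the median of ratios, which brought those medians to 0.00 and -0.03, all 8 members were called lower in both genotypes. The split of all calls went from 2868 rises and 698 falls to 1637 and 1524 in p53WT, and for p53KO from 2916 and 914 to 1590 and 1644.

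Set against 3dai directly, G2 libraries held more of each member's mean, by 1.49-fold to 9.38-fold in p53WT and by 1.65-fold to 4.79-fold in p53KO. In p53WT 4 of 8 members were called higher, while 13.9% of all genes were: Fos by 3.16 (adjusted p = 0.000809), Fosb by 2.45 (adjusted p = 0.00472), Fosl2 by 1.67 (adjusted p = 0.00539) and Atf3 by 2.08 (adjusted p = 0.00954). In p53KO 6 of 8 were called higher, while 16.1% of all genes were: Fos by 2.12 (adjusted p = 0.0106), Fosl1 by 1.18 (adjusted p = 0.0384), Fosl2 by 1.90 (adjusted p = 0.00213), Junb by 1.80 (adjusted p = 0.0249), Jund by 1.59 (adjusted p = 0.0383) and Atf3 by 2.05 (adjusted p = 0.00983). Jun was called in neither, at 0.89 (adjusted p = 0.23) and 0.69 (adjusted p = 0.346). Limma fits of only the groups compared moved these calls in both directions. In p53WT Jun (adjusted p = 0.00349), Junb (0.00468) and Jund (0.024) were then called as well. Genes called higher there went from 1805 to 1897. In p53KO Fosl1 and Junb were then not called, and genes called higher went from 2084 to 1251. The p53KO count depended on p53KO_3dai replicates 2 and 3. All genes called higher went from 2084 to 1513 without replicate 2 and to 1447 without replicate 3. In each of these 2 fits 3 members were called. Without both, where the 1 library left was assumed to vary like the other groups, none was, and 658 genes were called higher against 2084 with all libraries. There Junb was at 0.56 and Fosl1 at 0.48, while Fos, which was not low in those replicates, was at 2.39 (adjusted p = 0.0797). Without p53KO_G2 replicate 2, which leaves 1 library, Fos was at 1.46 and Atf3 at 1.77 in p53KO. Without p53WT_G2 replicate 1, which also leaves 1, Fosl2 was at 1.60 and Atf3 at 1.88 in p53WT. G2 and 3dai cells also came from different muscles. Group means of all 8 members stood in the order no suffix, G2, 3dai, and within each state the p53WT and p53KO groups were not called different for any member.

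Loss of Trp53 gave no called difference for any member. With no suffix all 8 members overlapped between genotypes (6.73% of genes did not) and every adjusted p was 1, 0 members had an unadjusted p below 0.05 (512 genes of 12954 did), and 1 gene in all (0.00772%) was called by limma. The mean of 7 members was higher in p53KO, with differences of 0.77 for Fos (95% interval -0.25 to 1.78), 0.37 for Fosb (-0.65 to 1.39), 0.21 for Fosl2 (-0.50 to 0.93), 0.84 for Jun (-0.11 to 1.80), 0.72 for Junb (-0.30 to 1.74), 0.70 for Jund (-0.29 to 1.69) and 0.63 for Atf3 (-0.35 to 1.60). Fosl1 was at -0.34 (-1.07 to 0.40). These values rest on p53KO replicate 3: without it Fos was at 0.16, Jun at 0.24, Junb at 0.21, Jund at 0.16, Atf3 at 0.06, Fosl2 at -0.05 and Fosb at -0.19, while Fosl1 was at 0.10. The upper bounds of the intervals lay between 0.40 and 1.80, so that a rise of that size was not excluded.

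In 3dai the genotypes again gave no called member (adjusted p = 0.506 to 1), and 11 genes (0.0849%) were called in all. Junb had an unadjusted p of 0.0369, as the 1 member below 0.05, where 1151 genes were. Fos and Fosb lay higher in every p53KO_3dai library than in any p53WT_3dai library, as did 5.07% of genes, with means of 59.7 ± 14.3 against 29.8 ± 3.39 FPKM for Fos (SD, n = 3 each) and 37.3 ± 8.66 against 20.7 ± 5.25 FPKM for Fosb. The Fos difference was 0.96 (95% interval -0.06 to 1.98) and that of Fosb 0.82 (-0.20 to 1.84). Jund lay lower in every p53KO_3dai library, as did 6.91% of genes, at -0.81 (-1.80 to 0.18). The other members were at -1.10 for Junb (-2.12 to -0.08), -0.67 for Fosl2 (-1.38 to 0.04), -0.52 for Fosl1 (-1.25 to 0.22), -0.48 for Atf3 (-1.46 to 0.49) and -0.09 for Jun (-1.04 to 0.86). Members therefore stood on both sides of 0, and none passed the test.

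The p53KO_3dai libraries did not act as 1 group. In replicates 2 and 3 Junb, Jund, Atf3, Fosl1 and Fosl2 were all below every p53WT_3dai library, whereas replicate 1 lay within or above the p53WT_3dai range for each of them except Jund. Fos and Fosb did not follow this split, and were higher than p53WT_3dai in all 3. Without replicate 1 Junb was called lower (-1.71, adjusted p = 0.0317), in a fit that called 514 genes in all, 473 of them lower, against 11 with all libraries. With libraries weighted by their fit, where replicate 1 got a weight of 0.401 against 1.54 and 1.87, Junb (-1.48, adjusted p = 0.0153) and Fosl2 (-1.02, adjusted p = 0.0208) were called, among 804 genes of which 698 were lower. With replicate 1 alone, Junb was at 0.14, Atf3 at 0.26, Fosl1 at 0.18, Fosl2 at 0.09 and Jund at -0.22. Egr1, another immediate early gene, followed the same split in the other direction, at 18.3, 92.5 and 95.7 FPKM in the 3 p53KO_3dai libraries against 8.71 to 13.2 FPKM in p53WT_3dai. It was named after its values were seen.

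**Figure D3:**
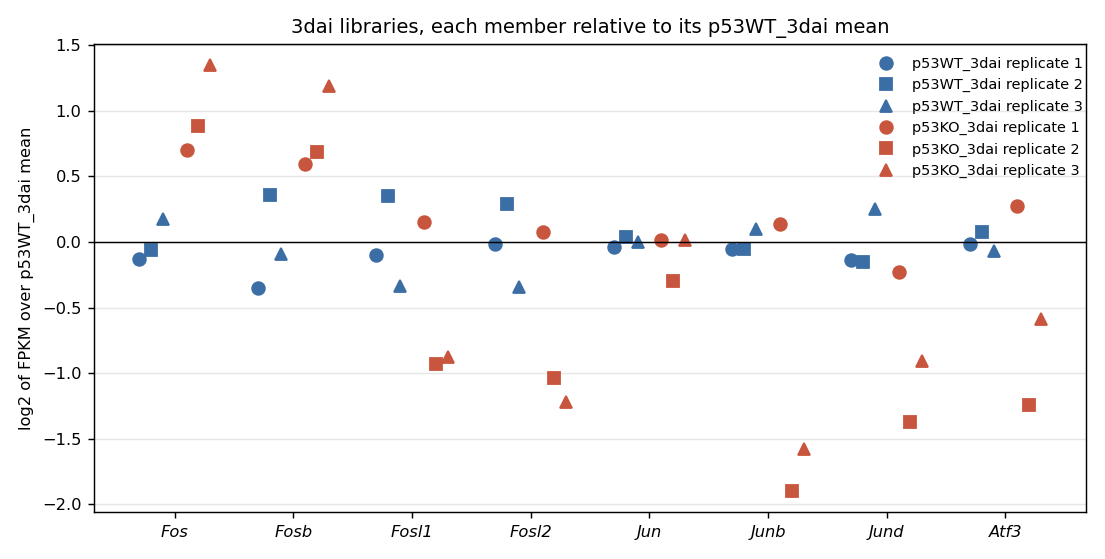
Each member's FPKM in the 6 3dai libraries, as log2 of its ratio to the p53WT_3dai mean; blue is p53WT_3dai, red p53KO_3dai and shapes are replicates. All 3 p53KO_3dai libraries lie above 0 for Fos and Fosb, while replicates 2 and 3, and not replicate 1, lie well below the blue points for Junb, Jund, Fosl1, Fosl2 and Atf3.

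In G2 the genotypes overlapped for 7 members, and Atf3 lay lower in both p53KO_G2 libraries, as did 16.1% of genes. Every adjusted p was 1, 0 members had an unadjusted p below 0.05 (631 genes did) and 9 genes (0.0695%) were called in all. The difference was -0.08 for Fos (95% interval -1.32 to 1.17), -0.50 for Fosb (-1.75 to 0.75), 0.08 for Fosl1 (-0.82 to 0.98) and -0.44 for Fosl2 (-1.31 to 0.43). It was -0.29 for Jun (-1.46 to 0.88), -0.22 for Junb (-1.47 to 1.03), -0.04 for Jund (-1.25 to 1.17) and -0.51 for Atf3 (-1.71 to 0.68). These intervals, from 2 libraries a group, are wider than those of the other states.

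The genotype difference in 3dai minus that with no suffix, which tests whether the fall to 3dai differs between genotypes, was called for no member, nor for any of the 12954 genes (0%). It was -1.81 for Junb (SE 0.68, adjusted p = 0.82), -1.51 for Jund (SE 0.66, adjusted p = 0.82) and -1.11 for Atf3 (adjusted p = 0.831), and between -0.93 and 0.45 for the other members. Junb and Jund had unadjusted p values below 0.05, as did 777 genes. Without p53KO replicate 3 Junb was at -1.30, and with p53KO_3dai reduced to replicate 1 it was at -0.57. Without p53KO_3dai replicate 1 it was at -2.43 (adjusted p = 0.0515), and there 146 genes were called, 135 of them negative and none of them a member. The same difference for G2 gave an adjusted p of 1 for every member, with 3 genes (0.0232%) called and 0 members but 564 genes below an unadjusted 0.05.

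The make-up of the family differed between states as well as its sum, both of which are on a scale per transcript length. The 8 members summed to 2781, 4586 and 13565 FPKM with no suffix (lowest, median and highest of 6 libraries), to 312, 519.8 and 589 FPKM in 3dai (6 libraries) and to 913, 1353 and 1548 FPKM in G2 (4 libraries). As a share of all FPKM of a library this was 0.544% to 2.9%, 0.0515% to 0.108% and 0.174% to 0.314%. The states did not overlap in either. The share of the family's FPKM held by Fos had a median of 27.1% in libraries with no suffix, against 7.26% for 3dai and 20.7% for G2, and that of Atf3 one of 12.3%, 3.87% and 5.7%. The share of Fosl1 ran the other way, with medians of 8.72%, 20.3% and 13.7%. Median shares were also higher in 3dai than with no suffix for Jun (15.8% against 10.8%), Junb (28.2% against 22.7%), Jund (12.2% against 8.36%) and Fosl2 (4.56% against 2.81%). These shares sum to the whole, so a fall in one raises the others.

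By level, Fos came first and Junb second in 5 of the 6 libraries with no suffix, and in p53WT replicate 2 they changed places. In 3dai Junb came first in 4 libraries, all 3 p53WT_3dai and p53KO_3dai replicate 1, and Jun came first in p53KO_3dai replicates 2 and 3. The ratio of Fos to Jun was 2.35 to 2.9 in libraries with no suffix, although each gene varied several-fold among them, and 1.36 to 2.6 in G2. In 3dai it was 0.334 to 0.403 in p53WT_3dai and 0.578 to 0.903 in p53KO_3dai. Junb over Jun was 1.78 to 2.07 in 4 of the 3dai libraries and 0.627 and 0.631 in p53KO_3dai replicates 2 and 3.

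**Figure D4:**
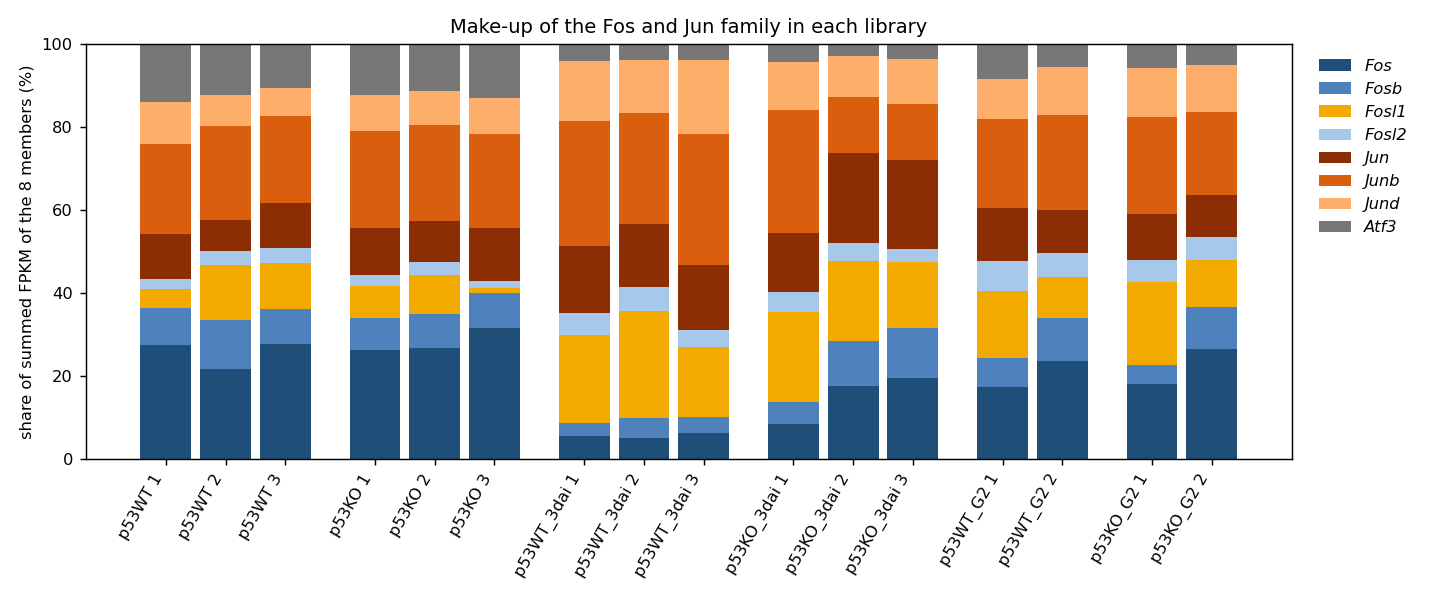
Share (%) of the summed FPKM of the 8 members held by each member, in each of the 16 libraries. Fos holds a larger share in every library with no suffix (21.7% to 31.5%) than in any 3dai library (5.02% to 19.4%); p53KO_3dai replicates 2 and 3 have a smaller Junb share than the other 3dai libraries.

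Within the groups with no suffix the members rose and fell together from library to library, except Fosl1. Fos, Fosb, Junb, Jund and Atf3 put the 6 libraries in 1 order, from p53KO replicate 3 and p53WT replicate 1 through p53KO replicates 1 and 2 and p53WT replicate 3 to p53WT replicate 2. Jun and Fosl2 shared its first 2 libraries and its last. Fosl1 had p53KO replicate 3 last and p53WT replicate 1 next to last. Pax7, a transcription factor that marks muscle stem cells, followed Fos. It was at 97.1 FPKM in p53KO replicate 3, 43.1 FPKM in p53WT replicate 1, 9.33 FPKM in p53WT replicate 2 and 26.05 to 28.2 FPKM in the other 3. Myf5 and Cd34 had the order of Pax7, but not all satellite cell markers did. Itga7 was lowest in p53KO replicate 3 (81.1 FPKM) and highest in p53WT replicate 2 (92.3 FPKM). Sdc4 was highest in p53WT replicate 1 (1750 FPKM). Myod1, the factor of committed myoblasts, was lowest in p53KO replicate 3 (390 FPKM) and p53WT replicate 1 (961 FPKM) and highest in p53WT replicate 2 (1270 FPKM). These orders cut across genotype, so the spread of Fos within p53WT and within p53KO moved with that of Pax7; its source was not tested.

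**Figure D5:**
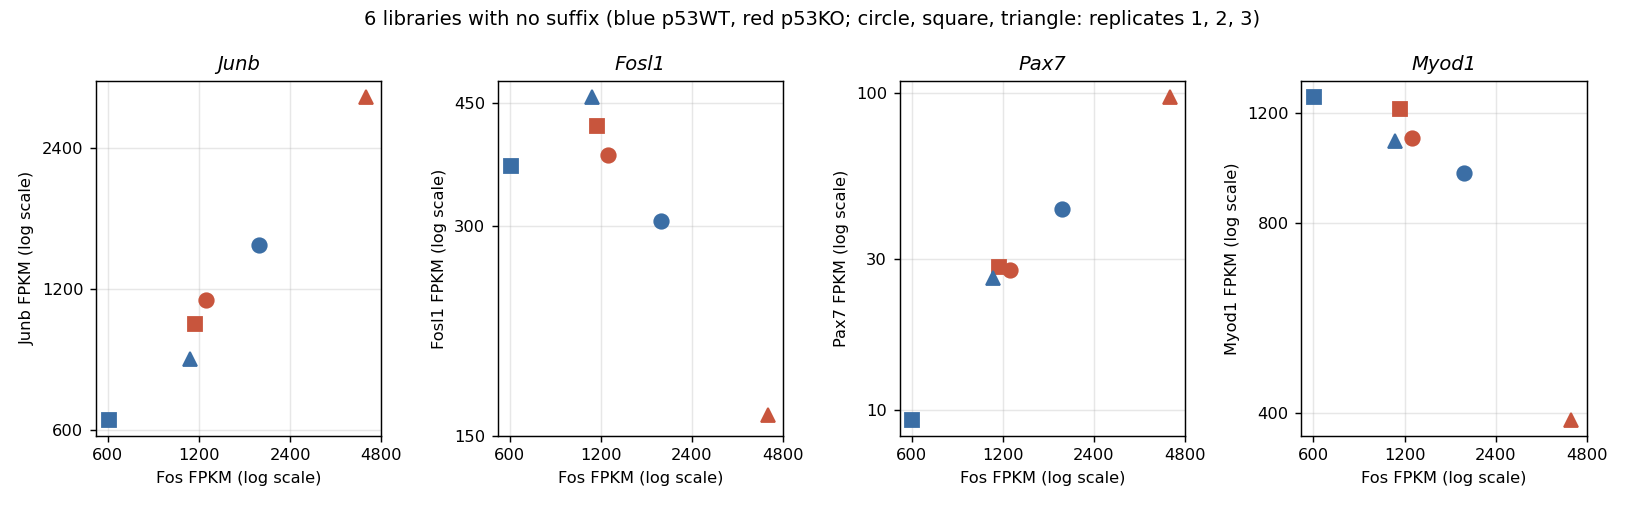
Junb, Fosl1, Pax7 and Myod1 against Fos in the 6 libraries with no suffix, in FPKM on log axes; blue is p53WT, red p53KO and shapes are replicates. Junb and Pax7 rise with Fos up to p53KO replicate 3, where Fosl1 (161 FPKM) and Myod1 (390 FPKM) are at their lowest.

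Over all 16 libraries, Pearson's r of log2(FPKM + 1) was 0.885 to 0.987 between members other than Fosl1 and 0.667 to 0.844 between Fosl1 and the others. These values include the distance between the 3 states. After group means were removed the first range was 0.523 to 0.927 and the second -0.673 to 0.116. Libraries of a group share their muscle, sort and genotype, so these values only describe them.

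The genes whose pattern over the 16 libraries was most like a member's were sought among 8392 candidates with a mean of at least 5 FPKM. They were Socs3 (r = 0.987), Nr4a1 (0.985) and Gnas (0.984) for Fos, and Btg2 (0.974), Nfkbiz (0.971) and Nr4a1 (0.971) for Fosb. For Fosl2 they were Sbno2 (0.989), Itpkc (0.988) and Hipk3 (0.988), and for Fosl1 Clic4 (0.98), Runx1 (0.971) and Pttg1ip (0.969). Fos and Fosb had Nr4a1 in common, and no other member, Fosl1 and Fosl2 included, had any gene listed for Fos or Fosb. For Jun they were Clmn (0.98), Dnajb1 (0.974) and Zfp36l1 (0.973), for Junb Skil (0.982), Id3 (0.98) and Ier2 (0.978), and for Jund Ier2 (0.979), Zfp36 (0.969) and Zfp36l1 (0.967). Atf3 had the closest match of all, Zfp36 (0.996), ahead of Trib1 (0.99) and Zfp36l1 (0.989). Zfp36 and Zfp36l1 encode proteins that speed the decay of mRNAs with AU-rich elements, and Socs3 a brake on cytokine signalling.

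Other genes of the pathway were read from lists set by name. Besides the shares called lower that are given above, 31.8% of all genes were called higher in p53WT_3dai, 30.4% in p53KO_3dai, 22.1% in p53WT_G2 and 22.5% in p53KO_G2 than in the group with no suffix. Of 20 other immediate early genes tested, 16 were called lower and 0 higher in p53WT_3dai than in p53WT, and 20 were called lower in p53KO_3dai than in p53KO, with median differences of -2.69 and -3.48. Egr1, a zinc finger factor induced alongside Fos, went from 1251 ± 588 to 11.2 ± 2.27 FPKM in p53WT (SD, n = 3 each; -6.57, adjusted p = 1.87e-07). Btg2, an antiproliferative gene, went from 424 ± 305 to 2.6 ± 0.841 FPKM (-6.64, adjusted p = 7.68e-08). In G2 9 of the 20 were called lower in p53WT and 11 in p53KO, and 0 higher in either.

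Among 13 other bZIP factors tested that can pair with AP-1 proteins, 1 was called higher and 6 lower in p53WT_3dai, and 0 and 8 in p53KO_3dai. The small Maf proteins fell furthest, Maff from 515 ± 130 to 10.9 ± 3.01 FPKM (-5.44, adjusted p = 4.56e-09) and Mafk from 290 ± 36.5 to 13.5 ± 2.48 FPKM (-4.34, adjusted p = 3.55e-08) in p53WT. Jdp2, a Jun partner that represses AP-1 sites, rose in p53WT from 21.5 ± 4.47 to 70.6 ± 10.8 FPKM (1.68, adjusted p = 0.000857). In G2 0 were called higher and 2 lower in p53WT_G2, with 0 and 3 for p53KO_G2, Maff and Mafk among them in both.

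Upstream of the family the picture was mixed. Of 19 MAP kinases and their kinases, 7 were called higher and 3 lower in p53WT_3dai, and 6 and 2 in p53KO_3dai. Mapk3 (ERK1) rose from 16.9 to 45.1 FPKM and Map2k2 (MEK2) from 26.6 to 61.1 FPKM in p53WT, while Map3k8, which activates MEK, fell from 18.4 to 0.562 FPKM (-3.67, adjusted p = 4.93e-07). Of 13 factors that bind Fos and Jun promoters, 2 were called higher and 3 lower in p53WT_3dai, and 1 and 3 in p53KO_3dai. Crem, a cAMP response factor that itself has early induced forms, fell from 153 ± 74.7 to 4.35 ± 2.15 FPKM (-4.82, adjusted p = 8.1e-08) and Stat3 from 231 ± 28.1 to 11.9 ± 0.461 FPKM (-4.17, adjusted p = 7.07e-08) in p53WT. Srf, the factor that binds the CArG box, was called lower in p53KO_G2 than in p53KO (21.1 against 62.8 FPKM, -1.37, adjusted p = 0.0129). In G2 3 of these 13 were called higher and 1 lower in p53WT_G2, with 1 and 2 for p53KO_G2, and of the 19 kinases 4 higher and 1 lower for p53WT_G2 and 4 and 2 for p53KO_G2.

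Genes known to end the response and genes of protein turnover were read next. Of 14 feedback phosphatases, RNA decay proteins and Socs3, 3 were called higher and 9 lower in p53WT_3dai, and 2 and 10 in p53KO_3dai. Zfp36 fell from 620 ± 282 to 30.6 ± 3.46 FPKM in p53WT (-4.20, adjusted p = 1.46e-06), and Dusp1, a nuclear phosphatase of JNK, p38 and ERK, from 269 ± 61.7 to 12.9 ± 1.2 FPKM in p53KO (-4.26, adjusted p = 4.02e-09). Dusp7, an ERK phosphatase, rose in both, from 3.1 to 13.6 FPKM and from 1.9 to 7.21 FPKM. In G2 3 were called higher and 6 lower in p53WT_G2, with 3 and 7 for p53KO_G2. Of 12 genes for breakdown or modification of Fos and Jun proteins, 6 were called higher and 1 lower in p53WT_3dai, and 8 and 1 in p53KO_3dai. Cops5, also named Jab1, a COP9 signalosome subunit that binds Jun, rose from 26.3 ± 8.09 to 116 ± 11.8 FPKM in p53WT (2.14, adjusted p = 6.11e-07). Rps6ka3, a kinase of the ERK pathway that phosphorylates Fos, was the 1 that fell, from 116 to 22.6 FPKM in p53WT and from 97.9 to 24.5 FPKM in p53KO. In G2 3 of the 12 were called higher and 1 lower in p53WT_G2, with 4 and 1 for p53KO_G2.

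Known targets of AP-1 did not move as 1 list. Of 23 tested, 4 were called higher and 8 lower in p53WT_3dai, 5 and 11 in p53KO_3dai, 8 and 6 in p53WT_G2 and 8 and 5 in p53KO_G2, each against its own group with no suffix. Spp1 (osteopontin) rose from 21.3 ± 1.49 to 721 ± 48.2 FPKM (5.01, adjusted p = 1.91e-09) and Ccnd1 (cyclin D1) from 14.1 ± 1.17 to 164 ± 33.1 FPKM (3.44, adjusted p = 8.27e-07) in p53WT_3dai. Cxcl1, a chemokine, fell from 1417 ± 174 to 88.4 ± 28.8 FPKM (-4.04, adjusted p = 8.52e-05) and the cytokine gene Il6 from 190.4 ± 110.4 to 8.1 ± 6.63 FPKM (-4.49, adjusted p = 0.000874). In p53WT_G2 Spp1 also rose, to 297 ± 30.1 FPKM (n = 2), while Mt2, a metallothionein, fell from 8195 to 2553 FPKM (-1.62, adjusted p = 0.00399). Between genotypes 0 genes of any of these 7 lists were called in any state.

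Summed markers of Schwann, pericyte, tenocyte and fibro-adipogenic cells were lower in 3dai, as the family was, but not all of these sums were in G2. In 3dai the summed FPKM of 6 Schwann cell markers was 35.03 to 55.2 in p53WT_3dai and 4.58 to 62.9 in p53KO_3dai against 369 to 445 in p53WT and 337 to 354 in p53KO. Of the 6, 5 were called lower in each genotype, and 1 was called higher in p53WT_3dai. The sum of 6 pericyte and smooth muscle markers was 16.4 to 36.2 and 14.0 to 44.1 against 265 to 881 and 299 to 460, and all 6 fell. For 6 tenocyte markers it was 38.7 to 85.8 and 36.0 to 73.1 against 219 to 438 and 226 to 386, with 5 lower and Scx higher. For 5 fibro-adipogenic markers, of which Dcn made up most, it was 29.5 to 42.3 and 23.3 to 45.9 against 397 to 485 and 342 to 628. Of the 4 tested, 2 were called lower in each genotype. In G2 the Schwann sum (124 to 138 and 131 to 133) and the fibro-adipogenic sum (182 and 72.6 to 132) were lower than with no suffix, whereas the pericyte sum was 575 to 674 and 311 to 542. The tenocyte sum was 462 to 542 in p53WT_G2, above every p53WT library, and 230.3 to 234 in p53KO_G2, within the range of p53KO. Of the 6 tenocyte markers, 1 was called higher and 0 lower in p53WT_G2, with 1 and 3 for p53KO_G2. Kcnj8 was listed at 0 in all 3dai libraries, and Pi16 too. The 6 endothelial markers summed to at most 27.1 FPKM in any library. The part of these cells in the fall of the family was not tested.

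Markers of the sorted cells moved too. The 8 satellite cell markers summed to 1760 to 2509 FPKM with no suffix, 573 to 659 FPKM in 3dai and 874 to 1170 FPKM in G2. In 3dai 5 were called lower and 1 higher in each genotype: Calcr, a receptor of quiescent satellite cells, went from 46.9 to 0.3 FPKM in p53WT (-5.21, adjusted p = 1.16e-08), and Itga7 rose from 90.1 to 196 FPKM (1.12, adjusted p = 0.000171). The 6 myoblast and muscle fibre markers summed to 657 to 1201 FPKM in p53WT_G2 against 1033 to 1296 FPKM in p53WT, and to 491 to 838 FPKM in p53KO_G2 against 429 to 1248 FPKM in p53KO. Of the 6, 2 were called higher and 1 lower in p53WT_G2, and in p53KO_G2 3 were higher and 1 lower. Myod1 was the one that fell, by 2.51 (adjusted p = 7.77e-05) in p53WT and by 2.26 (adjusted p = 0.000179) in p53KO. In G2 Myog, a factor of differentiating myoblasts, was at 233 FPKM in p53WT_G2 against 3.6 FPKM in p53WT (6.34, adjusted p = 0.000144), and skeletal actin, Acta1, at 475 against 16.2 FPKM (4.96, adjusted p = 3.52e-05). In 3dai 1 of these 6 was called higher and 3 lower in each genotype. Myog rose there too, by 3.00 (adjusted p = 0.00656) in p53WT and 2.91 (adjusted p = 0.00775) in p53KO. Myod1 fell there by 2.02 (adjusted p = 5.14e-05) and 1.76 (adjusted p = 0.000175). The part of these shifts in the family's levels was not tested.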

How the data were processed

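RNA-seq of total RNA from sorted cells was deposited as 1 table per library of FPKM, which the authors computed with Cufflinks and Cuffdiff after STAR alignment to mm10, per the submitters' processing notes; no source used here gives tool versions or read depth. The members and lists were chosen with earlier results of these data known. Groups came from the sample labels. Levels were compared as log2(FPKM + 1) in limma 3.58.1 (R 4.3.3), with all 16 libraries in 1 fit and an intensity trend, over 12954 genes with at least 1 FPKM in at least 2 libraries. Tests were two-sided, p was adjusted by Benjamini-Hochberg over all genes tested, and an adjusted p under 0.05 was a call. The fit was tested on simulated data. From each list at most 2 rises and 2 falls were named, the largest among called genes with a mean of at least 5 FPKM in the higher group, and 3 genes most like each member. Trp53 was read as a check, and Pax7, Myod1, Egr1 in single libraries, and other markers were named after their values were seen. Alternatives were other pseudocounts, filters, scalings and weights, fits of only the groups compared, a replicate block and leaving out each library. After group means were removed, same-numbered libraries of the 2 genotypes correlated at -0.147 to 0.127 and differently numbered ones at -0.198 to 0.227. With 2 or 3 libraries a group, removing means ties these values together, so they cannot show or exclude pairing. Numbers were not taken to pair libraries.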

Additional observations from a re-analysis of the deposited data

How the results depend on the processing

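Of 1472 values of members under alternatives, 1368 kept their direction and side of the threshold, 58 lost and 14 gained a call, and 32 changed sign. All 8 members stayed called lower in 3dai against no suffix, in both genotypes, under every alternative run except 1 added after seeing the data: without p53KO_3dai replicates 2 and 3 together, 7 were called in p53KO. Counts of called members moved without the low-value filter (p53WT_G2 against p53WT 3, p53KO_G2 against p53KO_3dai 3), with array weights (p53KO_3dai against p53WT_3dai 2), with only the groups compared (p53WT_G2 against p53WT_3dai 7) and without p53KO_3dai replicates 2 and 3 (p53KO_G2 against p53KO_3dai 0). Leaving out 1 library at a time gave 1 to 6 for p53WT_G2 against p53WT, 4 to 7 for p53KO_G2 against p53KO, 2 to 4 for p53WT_G2 against p53WT_3dai, 1 to 6 for p53KO_G2 against p53KO_3dai and 0 to 1 for p53KO_3dai against p53WT_3dai; a lone library of a group was assumed to vary like the others. With the replicate block, p53WT_G2 against p53WT had 4 called members and p53KO_G2 against p53KO_3dai 5, and the other counts did not change. Calls over all genes moved in such fits too. Without p53WT replicate 3, for example, 544 genes were called lower in p53WT_G2 than in p53WT, against 698 with all libraries. The cause was not tested.

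Signs changed only for differences that were not called. Between genotypes with no suffix, array weights gave Fosb -0.087 and Fosl2 -0.055, and leaving out 1 library gave Fosb -0.19 to 0.67, Fosl1 -0.59 to 0.10 and Fosl2 -0.055 to 0.38. In 3dai, Jun was 0.00254 without small RNA and mitochondrial names and -0.14 to 0.012 leaving out 1 library; without p53KO_3dai replicates 2 and 3 Atf3 was 0.26, Fosl1 0.18, Fosl2 0.094, Jun 0.012 and Junb 0.14, and in the 3dai interaction Fos -0.074 and Fosl1 0.51. In G2, leaving out 1 library gave Fos -0.74 to 0.58, Fosb -1.44 to 0.45, Fosl1 -0.16 to 0.32, Jun -0.60 to 0.023, Junb -0.50 to 0.053 and Jund -0.38 to 0.29. The same gave Fos -0.21 to 0.80 and Fosl1 -0.62 to 0.069 in the 3dai interaction, and Fosb -1.81 to 0.075 and Fosl1 -0.022 to 0.66 in that of G2. Depth is unknown, and the number of libraries limits the precision.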
